A study of Mus musculus with 24 samples.

Results

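The comparison described here set 2 hairpins that name the same target, EGR2, against each other on 1 diet: 3 arrays of shEGR2_38.9 on the PA-rich diet against 3 arrays of shEGR2_40.9 on the same diet, 6 arrays of the 24 in the series, chosen by their sample titles. All arrays carried mouse RNA from the cells that the submitters call the neural fraction of the tumour stroma. The tumours were orthotopic xenografts of SCC25, an established cell line of human squamous carcinoma of the mouth, in NSG (NOD-SCIDγ) mice, an immunodeficient strain. The mice ate a control diet or a PA-rich diet, titled PALM. Besides the 2 EGR2 hairpins the series has groups labelled PLKO and shGAL, so that 4 constructs and 2 diets make 8 groups of 3 arrays. The hairpin belongs to the xenograft while the arrays read mouse genes, so the mouse Egr2 level is no check of the knockdown. The arrays of a group are called technical replicates and no source says whether they came from separate mice; p-values here measure the spread between arrays only. NSG mice lack T, B and natural killer cells, which limits what a stromal fraction can hold, and the ages of the mice are not given in the sources used here.

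EGR2 is a zinc finger transcription factor of the early growth response family, which also holds EGR1 and EGR3. In peripheral nerve it drives myelination by Schwann cells, and the corepressors NAB1 and NAB2 bind to it. Stroma around a carcinoma holds nerve, blood and lymph vessels, the contractile cells of vessel walls, fibroblasts and immune cells, and each of these has marker genes that a bulk array reads together. Smooth muscle contracts when myosin light chain kinase phosphorylates the regulatory light chain of myosin, whose heavy chain in this tissue is the product of Myh11.

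The values are log2 RMA values, in which 1 unit is a doubling of the signal, and they compare the same probe set between arrays, never 1 gene with another. A gene was tested where its probe set had a mean of at least 6.27 over all arrays, a level taken as the floor of dim probe sets. The 6 arrays were alike in overall signal, with medians of 6.77 to 6.79, and in RNA quality, with Gapdh probe sets at the 3′ and 5′ ends that differed by -0.046 to 0.017. Each correlated at 0.996 with its own group. Among the other arrays, shEGR2_38.9 control diet replicate 3 stood apart, with a Gapdh 3′ minus 5′ difference of 0.76 against -0.12 to 0.077 in all other arrays and a correlation of 0.978 with its own group; it enters the model's spread and the control diet comparison. Of the 94 genes named below, 41 were called on the control diet with it and 37 of these without it, in the same direction; Mylk, Ttyh2, Calcrl and Dcn lost that call, 9 others gained it, and no named control diet difference moved by more than 0.35. The labels give a scan batch, and only batch 3, which holds replicate 3 of both hairpins, is shared by the 2 groups compared. Markers of the labelled cell type were partly below the floor. Of 8 Schwann cell genes with a probe set, 4 were tested, with S100b, Foxd3, Fabp7 and Gfap dim, and of 16 neuronal genes 7 were tested, with the neurofilament genes Nefl, Nefm and Nefh, Uchl1 and Snap25 dim. Sox10, which defines the Schwann lineage, was above the floor at 7.46 ± 0.06 with shEGR2_40.9 and 7.48 ± 0.09 with shEGR2_38.9 (SD, n = 3). Keratinocyte genes were tested in 16 of 17 cases, all 5 mast cell markers were dim, and whether RNA of the human tumour cells bound to mouse probe sets was not tested.

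On the PA-rich diet the 2 hairpins differed in 593 of 11844 genes tested, which is 5.01% (limma, Benjamini-Hochberg adjusted p under 0.05). Of these, 331 were higher with shEGR2_38.9, 2.79% of the genes tested, and 262 were lower, 2.21%. The median absolute difference was 0.45 among the called genes and 0.081 among all genes, and the median difference of all genes was -0.0048. Only 31 called genes differed by more than 1 on the log2 scale, 22 lower and 9 higher, so the larger differences lay mostly among genes that shEGR2_40.9 held higher. The arrays of the 2 groups did not overlap in 590 of the 593 called genes (4.98% of the genes tested), while 32.1% of all genes tested had arrays that did not overlap. With the scan batch as a block the count was 363 (3.06%; 174 higher, 1.47%, and 189 lower, 1.6%), with 335 of the 593 kept in the same direction. In the single pair of arrays that shared a scan batch, all 593 kept their sign, although those arrays are also part of the fit; over all genes 9568 of 11844 had the same sign there. The count was 302 without shEGR2_38.9 replicate 2, 327 without shEGR2_40.9 replicate 3, 344 without shEGR2_40.9 replicate 2, 371 without shEGR2_38.9 replicate 3, and 928 without the control diet array that stood apart. Of the 84 called genes named below, 48 kept their call in each of up to 18 alternatives and none changed direction; where a call was lost, the highest adjusted p over the alternatives is given beside it. Tchh apart, the arrays of the 2 groups did not overlap in any of the 84.

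**Figure D1:**
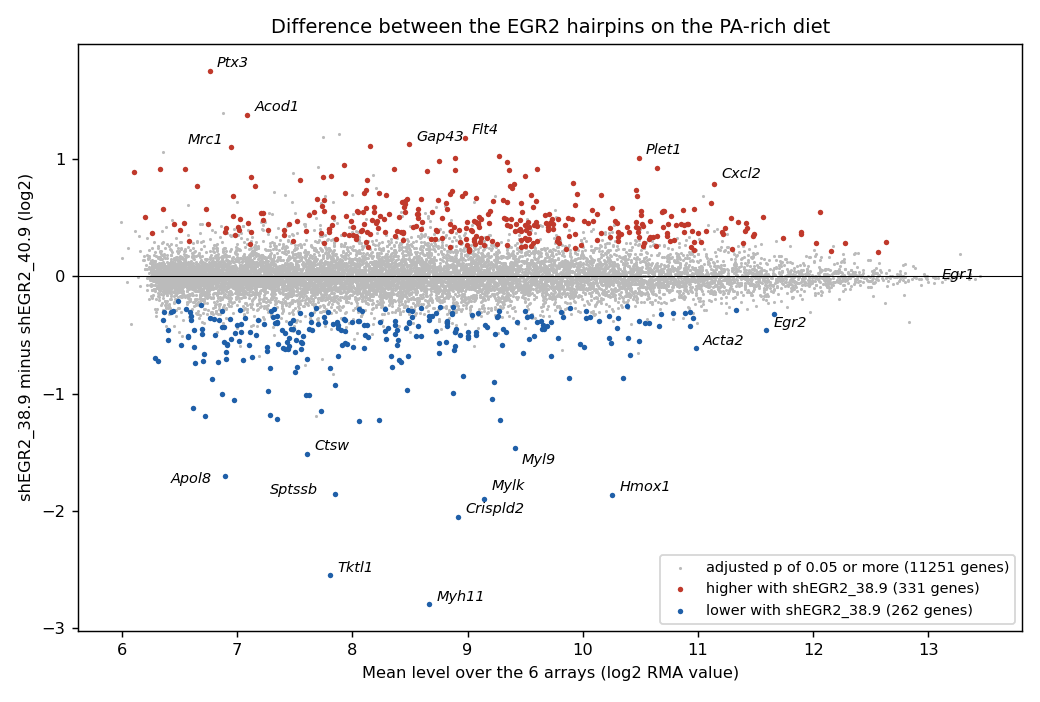
Each point is 1 of the 11844 genes tested; the horizontal axis is its mean log2 RMA value over the 6 arrays and the vertical axis the difference shEGR2_38.9 minus shEGR2_40.9 on the PA-rich diet. The 262 lower genes (blue) reach -2.79 for Myh11, while the 331 higher genes (red) reach 1.75 for Ptx3, whose shEGR2_40.9 arrays lay below the floor.

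Genes of smooth muscle contraction held the largest single difference, that of Myh11, and 4 of them were lower with shEGR2_38.9. Myh11, the smooth muscle myosin heavy chain, read 9.74, 10.04 and 10.41 in the shEGR2_40.9 arrays and 7.18, 6.86 and 7.78 in the shEGR2_38.9 arrays. The lowest shEGR2_40.9 array lay well above the highest shEGR2_38.9 array, and the fitted difference was -2.79 ± 0.35 (the model's SE, as after every ± below unless named otherwise; adjusted p = 2.61e-05), a 6.93-fold lower signal. Mylk, the myosin light chain kinase, read 9.79, 10.11 and 10.38 with shEGR2_40.9 and 8.21, 8.16 and 8.22 with shEGR2_38.9, a difference of -1.90 ± 0.26 (adjusted p = 9.66e-05). Myl9, the regulatory light chain that this kinase phosphorylates, read 10.09, 10.03 and 10.31 and 8.65, 8.57 and 8.82, a difference of -1.46 ± 0.21 (adjusted p = 0.000103). Acta2, smooth muscle actin, read 11.21, 11.29 and 11.36 and 10.65, 10.61 and 10.76, a smaller difference of -0.61 ± 0.09 (adjusted p = 0.000105). The groups did not overlap for any of the 4 genes, and each kept its call with the batch block and without any 1 of the 6 arrays. Acta2 lost it where its most variable probe set stood for the gene (adjusted p = 0.578).

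These 4 were all the called genes among the 10 tested members of a list of 15 pericyte and smooth muscle markers, and none was higher (4 of 10 lower, beside 2.21% of all genes, and 4 without the array that stood apart). The list's median was -0.14, and the other 6 did not pass the test, among them Cnn1, a calponin of smooth muscle, by -0.06, the muscle intermediate filament gene Des by -0.07, and the pericyte genes Pdgfrb by 0.02, Rgs5 by 0.04 and Notch3 by -0.22, with adjusted p from 0.308 to 0.978 among these 5. The mean over the list ran from 8.50 to 8.67 in the shEGR2_40.9 arrays and from 7.78 to 7.96 in those of shEGR2_38.9, beside 7.80 to 8.14 with PLKO and 7.58 to 7.82 with shGAL on the same diet. The PLKO and shGAL arrays were thus nearer to shEGR2_38.9 on this diet, and the shEGR2_40.9 arrays were the high ones. On the control diet both hairpins stood alike, with list means of 8.51 to 8.78 for shEGR2_40.9 and 8.48 to 8.89 for shEGR2_38.9. In a bulk fraction, fewer cells of a type and less RNA per cell cannot be told apart. Probe sets disagreed in size: a second Myh11 probe set, below the floor, differed by -0.11, and the other 2 of Mylk by -0.26 and -0.97, in the same direction.

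Outside the list, Crispld2, which encodes a secreted glycoprotein, read 9.63, 9.92 and 10.28 with shEGR2_40.9 and 7.87, 7.74 and 8.06 with shEGR2_38.9 (-2.05 ± 0.34, adjusted p = 0.000589). Gucy1a1, a subunit of the soluble guanylate cyclase that relaxes smooth muscle in response to nitric oxide, read 7.35, 7.06 and 7.54 and 6.12, 6.13 and 6.14 (-1.19 ± 0.12, adjusted p = 1.36e-06). Rgs4, which dampens signalling from G protein-coupled receptors, read 6.83, 6.95 and 7.75 and 6.06, 5.93 and 6.16 (-1.12 ± 0.21, adjusted p = 0.00201). In both Gucy1a1 and Rgs4 the shEGR2_38.9 mean lay below the floor, so these log2 differences are no exact folds.

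None of the 4 contractile genes was called lower with shEGR2_38.9 on the control diet. There Myh11 differed by 0.27 ± 0.35 (adjusted p = 0.672), Myl9 by 0.28 ± 0.21 (adjusted p = 0.419) and Acta2 by -0.11 ± 0.09 (adjusted p = 0.456), while Mylk was higher with shEGR2_38.9 by 0.84 ± 0.26 (adjusted p = 0.0414), a call that was lost without the array that stood apart (adjusted p = 0.157). The test of the difference between diets was passed by all 4, with Myh11 at -3.06 (adjusted p = 0.000591) and Mylk at -2.74 (adjusted p = 6.81e-05), and also by all 4 without that array. Crispld2, Gucy1a1 and Rgs4 passed it too, at -2.68, -1.52 and -2.22 (adjusted p = 0.00158, 8.84e-06 and 5.86e-05), and Rgs4 was higher with shEGR2_38.9 on the control diet (1.10, adjusted p = 0.00129). The test between diets includes the PA-rich difference, and these genes were named for that difference or for the diet dependence itself. Passing it is thus no separate support.

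The promoter of Myl9 is shown because it is the only one, among the 3 called contractile genes with an entry, that holds a CArG box, the motif bound by serum response factor at many contractile and immediate early genes. It spans the 250 bases before the start, chr2:156775214-156775463 (GRCm38.p6, plus strand, RefSeq), 5′ to 3′, with the CArG box in capitals, 161 bases before the start:
Myl9: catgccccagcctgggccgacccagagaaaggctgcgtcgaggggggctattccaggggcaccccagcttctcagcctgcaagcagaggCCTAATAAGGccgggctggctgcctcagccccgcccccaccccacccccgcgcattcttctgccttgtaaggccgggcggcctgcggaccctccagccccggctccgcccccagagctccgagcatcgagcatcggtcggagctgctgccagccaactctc
A CArG box on either strand occurred in 1.47% of the 32851 promoters of that length in the table and in 1.55% of the 9502 tested genes with an entry. It occurred in 5 of 268 higher genes (1.87%) and 2 of 212 lower genes (0.94%), shares near that background.

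**Figure D2:**
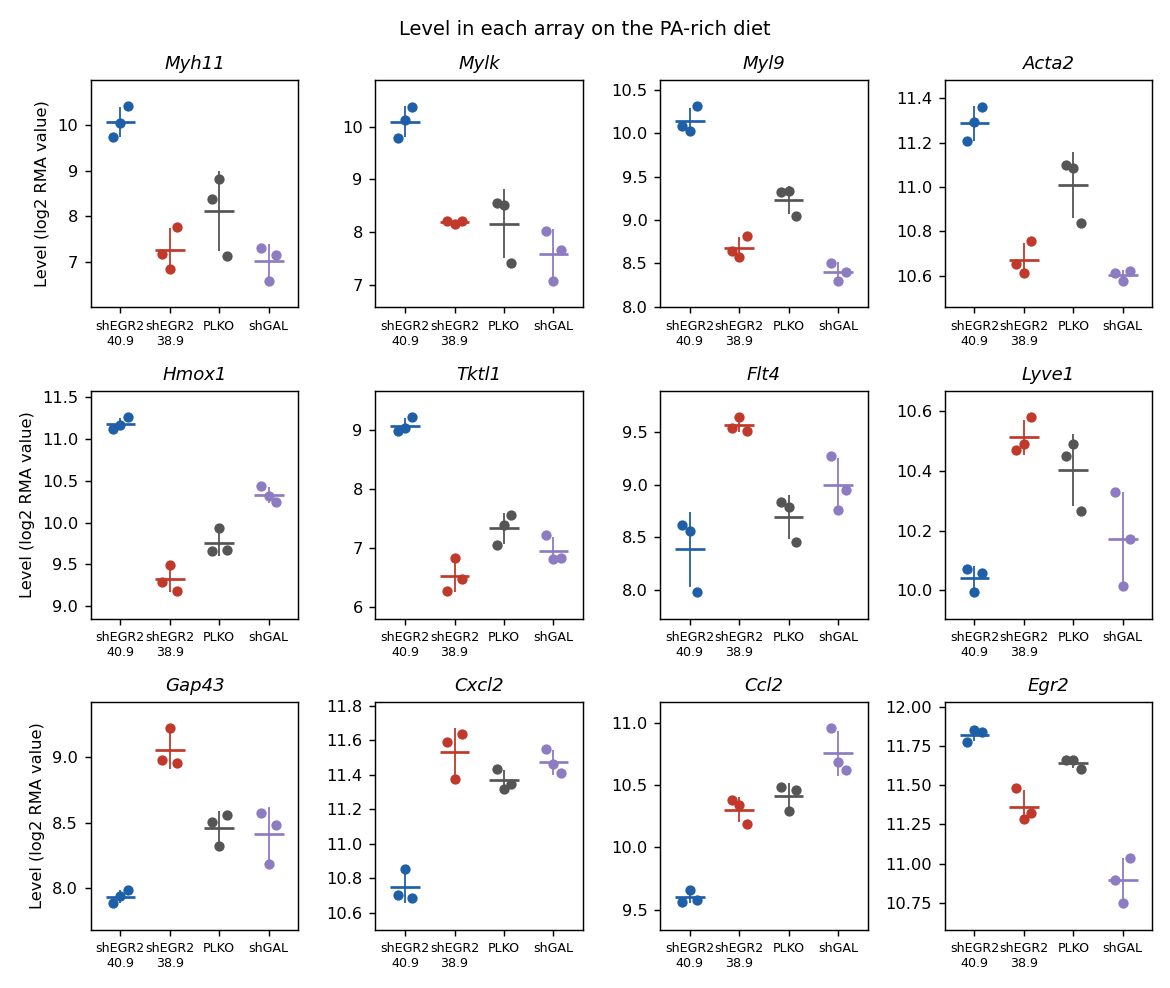
Each panel is 1 gene on the PA-rich diet, with the log2 RMA value on the vertical axis (ranges differ between panels), a point for each of 3 arrays per group, a horizontal bar for the mean and a vertical bar for the SD. The shEGR2_40.9 arrays are the highest for Myh11, Mylk, Myl9, Acta2, Hmox1 and Tktl1 and the lowest for Gap43, Cxcl2 and Ccl2.

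Hmox1, heme oxygenase 1, which breaks down heme and is a classic target of the oxidative stress factor NRF2, had the lowest adjusted p among the genes named here. It read 11.12, 11.17 and 11.26 with shEGR2_40.9 and 9.29, 9.49 and 9.18 with shEGR2_38.9. The arrays of each group lay close together and the groups far apart, and the difference was -1.86 ± 0.09 (adjusted p = 4.59e-12), a 3.64-fold lower signal. It was -0.61 ± 0.09 on the control diet (adjusted p = 6.05e-05), in the same direction, and the 2 diets differed by -1.25 (adjusted p = 3.6e-06). Among 11 tested NRF2 targets, Srxn1, which encodes the sulfiredoxin that repairs peroxiredoxins, was also lower (-0.47 ± 0.12, adjusted p = 0.0248), a call that was lost without any 1 of the 6 arrays, with adjusted p up to 0.107. In all, 2 of 11 were lower, beside 2.21% of all genes, and none was higher, with a median of -0.16 (4 of 11 lower without the array that stood apart).

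Lipid synthesis genes that were called were all lower with shEGR2_38.9. Of 14 tested fatty acid synthesis genes 2 were lower, beside 2.21% of all genes, and 1 without any array of shEGR2_40.9 or without replicate 2 of shEGR2_38.9. Elovl6, the elongase that takes palmitate to stearate, read 9.29, 9.15 and 9.15 with shEGR2_40.9 and 8.64, 8.57 and 8.50 with shEGR2_38.9 (-0.63 ± 0.12, adjusted p = 0.00218). Acaca, acetyl-CoA carboxylase, read 10.17, 10.20 and 10.16 and 9.89, 9.80 and 9.93 (-0.30 ± 0.07, adjusted p = 0.0182; up to 0.369 over the alternatives, 0.0573 with the batch block). The median over that list was -0.04. Of 14 cholesterol genes 2 were lower, Fdps, farnesyl diphosphate synthase (-0.50 ± 0.07, adjusted p = 0.000165), and Cyp51, a sterol demethylase (-0.36 ± 0.08, adjusted p = 0.00692; up to 0.0558 over the alternatives), and 10 of 14 differences were negative, with a median of -0.19. Both were lower on the control diet as well, Fdps by -0.40 and Cyp51 by -0.37 (adjusted p = 0.000845 and 0.00258). Among 14 genes of fatty acid uptake and oxidation only Angptl4, an inhibitor of lipoprotein lipase that responds to fatty acids, was called. It was higher, beside 2.79% of all genes (0.53 ± 0.13, adjusted p = 0.0144; up to 0.131 over the alternatives), and higher on the control diet as well (0.60, adjusted p = 0.00287).

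A further group of large differences stood on both diets. Tktl1, a transketolase-like gene, read 8.98, 9.04 and 9.22 with shEGR2_40.9 and 6.28, 6.83 and 6.48 with shEGR2_38.9 on the PA-rich diet (-2.55 ± 0.15, adjusted p = 1.77e-10) and differed by -1.64 ± 0.15 on the control diet (adjusted p = 1.08e-07). Sptssb, a small subunit of the serine palmitoyltransferase that joins serine to palmitoyl-CoA, read 8.44, 9.11 and 8.76 and 6.81, 6.74 and 7.21 (-1.85 ± 0.32, adjusted p = 0.000888; control diet -1.99, adjusted p = 0.000189). Apol8, of the apolipoprotein L family, read 7.71, 7.77 and 7.76 and 6.19, 6.07 and 5.88 (-1.70 ± 0.11, adjusted p = 4.32e-10; control diet -1.54, adjusted p = 3.23e-09), with the shEGR2_38.9 mean below the floor. In all 3 genes each shEGR2_38.9 array lay far under each shEGR2_40.9 array. Ctsw, a cathepsin, differed by -1.51 ± 0.13 on the PA-rich and -1.11 on the control diet (adjusted p = 1.84e-07 and 6.09e-06). Tnn, a tenascin of the extracellular matrix, differed by -1.22 ± 0.19 and -0.76 (adjusted p = 0.000222 and 0.00901), and Homer1, a scaffold of the postsynaptic density, by -0.57 ± 0.09 and -0.43 (adjusted p = 0.000388 and 0.00276). Of these 6 genes, Tktl1 passed the test of the difference between diets (-0.91, adjusted p = 0.011), and the adjusted p of the other 5 ran from 0.254 to 0.911.

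The other large decreases with shEGR2_38.9 were in genes of varied function. Mrnip, which acts with the MRE11 DNA repair complex, differed by -1.22 ± 0.12 (adjusted p = 1.36e-06) and passed the test between diets (-1.37, adjusted p = 4.2e-05). Kptn, which encodes the actin-associated kaptin, differed by -1.22 ± 0.10 (adjusted p = 1.07e-07). Far2, a fatty acyl-CoA reductase that makes fatty alcohols, differed by -1.18 ± 0.21 (adjusted p = 0.00127), and 9930012K11Rik by -1.23 ± 0.15 (adjusted p = 1.42e-05).

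Of 7 tested lymphatic endothelial genes, 4 were higher with shEGR2_38.9 (3 with the batch block). Flt4, the receptor for the lymphatic growth factor VEGF-C, read 8.61, 8.56 and 7.98 with shEGR2_40.9 and 9.54, 9.64 and 9.51 with shEGR2_38.9; replicate 3 of shEGR2_40.9 was the low one, and the groups did not overlap (1.18 ± 0.21, adjusted p = 0.00123). Lyve1, the hyaluronan receptor of lymphatic vessels, read 10.07, 9.99 and 10.06 and 10.47, 10.49 and 10.58 (0.47 ± 0.09, adjusted p = 0.00315). Reln, the secreted glycoprotein reelin, differed by 0.84 ± 0.21 (adjusted p = 0.0184; up to 0.129 over the alternatives) and Nrp2, a coreceptor for VEGF-C and semaphorins, by 0.45 ± 0.10 (adjusted p = 0.0113; up to 0.0951 over the alternatives, with the batch block). The share of all genes that were higher was 2.79%, and in the list all 7 differences were positive and the median was 0.66. Prox1, which specifies lymphatic identity, differed by 0.93 ± 0.33 (SE) with an adjusted p of 0.123. The count was 2 without shEGR2_40.9 replicate 2 and 2 without shEGR2_38.9 replicate 2, and it stayed 4 without the control diet array that stood apart. The list's mean ran from 8.70 to 9.06 in the shEGR2_40.9 arrays and from 9.52 to 9.66 in those of shEGR2_38.9. The PLKO arrays, at 8.95 to 9.14, overlapped those of shEGR2_40.9, and the shGAL arrays ran from 9.02 to 9.36. On the control diet 3 of the 7 were higher, beside 4.32% of all genes, and the median was 0.51 (5 of 7 without the array that stood apart). None of the 7 passed the test of a difference between diets.

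Blood endothelial genes gave few calls. Of 16 tested, 2 were higher on the PA-rich diet, beside 2.79% of all genes. The signs of the 16 were split 8 to 8, with a median of 0.10 and list means of 7.86 to 8.07 against 7.97 to 8.19. The largest difference among them, -1.19 for Vwf, which encodes von Willebrand factor, had an adjusted p of 0.0599. Cdh5, the cadherin of endothelial junctions, differed by 0.56 ± 0.16 (adjusted p = 0.0411; up to 0.33 over the alternatives, 0.156 with the batch block). Flt1, a receptor for VEGF-A, read 9.24, 8.86 and 9.33 and 9.72, 10.27 and 10.17 (0.91 ± 0.17, adjusted p = 0.00178), but 1 of its other probe sets differed by -0.35 and another by 0.83. On the control diet 7 of the 16 were higher, beside 4.32% of all genes (8 without the array that stood apart), Cdh5 among them (0.69, adjusted p = 0.0058).

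Several genes with nerve, vessel or macrophage roles were higher on both diets, and some others of those roles on 1. Gap43, a protein of growing axons that Schwann cells of injured nerve also make, read 7.88, 7.94 and 7.98 with shEGR2_40.9 and 8.98, 9.22 and 8.96 with shEGR2_38.9 (1.12 ± 0.16, adjusted p = 0.000108; control diet 0.90, adjusted p = 0.000571). Mrc1, the mannose receptor of tissue macrophages and lymphatic endothelium, read 6.34, 6.44 and 6.41 and 7.44, 7.76 and 7.28 (1.10 ± 0.16, adjusted p = 0.000205; control diet 1.01, adjusted p = 0.000223). All shEGR2_38.9 arrays of both genes lay above the shEGR2_40.9 arrays. Nid1, a basement membrane linker, differed by 0.73 ± 0.13 and 0.73 on the 2 diets (adjusted p = 0.00141 and 0.000776), and the sodium channel gene Scn3a by 0.89 ± 0.20 and 1.19 (adjusted p = 0.0108 and 0.000428; the first up to 0.0677 over the alternatives), with its shEGR2_40.9 arrays below the floor. Fn1, fibronectin, differed by 0.90 ± 0.26 on the PA-rich diet (adjusted p = 0.049; up to 0.217 over the alternatives, with the batch block), and Tnc, tenascin C, went the other way (-0.35 ± 0.10, adjusted p = 0.0388; up to 0.192 over the alternatives, 0.0825 with the batch block). In the macrophage list Cd68, a lysosomal glycoprotein, was lower (-0.70 ± 0.10, adjusted p = 6.9e-05) while Mrc1 was higher, and 7 of the 13 macrophage markers, Adgre1, Itgam and C1qa among them, were dim. Dcn, the fibroblast proteoglycan decorin, was higher (0.50 ± 0.11, adjusted p = 0.00836; up to 0.0715 over the alternatives, 0.0544 with the batch block), but lower on the control diet (-0.37, adjusted p = 0.0325; -0.19 and 0.206 without the array that stood apart), and the diets differed by 0.87 (adjusted p = 0.00166).

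Of 16 tested inflammatory genes, 7 were higher with shEGR2_38.9, all of them chemokines or cytokines, and 9 did not pass. Cxcl2, a chemoattractant for neutrophils, read 10.70, 10.85 and 10.69 with shEGR2_40.9 and 11.59, 11.38 and 11.63 with shEGR2_38.9 (0.79 ± 0.10, adjusted p = 1.77e-05). Ccl2, which attracts monocytes, read 9.56, 9.66 and 9.58 and 10.38, 10.34 and 10.19 (0.70 ± 0.13, adjusted p = 0.00226). Ccl20, the ligand of CCR6, read 8.39, 8.25 and 8.38 and 8.84, 8.67 and 8.79 (0.43 ± 0.08, adjusted p = 0.00175). In each the shEGR2_38.9 arrays all lay above the shEGR2_40.9 arrays, and the PLKO means (11.37, 10.41 and 9.05) lay nearer to shEGR2_38.9. The alarmin Il1a differed by 0.47 ± 0.11 (adjusted p = 0.0137; up to 0.102 over the alternatives), Il33 by 0.66 ± 0.16 (adjusted p = 0.0128; up to 0.0879 over the alternatives, with the batch block), Il24 by 0.82 ± 0.22 (adjusted p = 0.0269; up to 0.176 over the alternatives, 0.12 with the batch block) and Cxcl1 by 0.45 ± 0.13 (adjusted p = 0.0446; up to 0.158 over the alternatives, 0.146 with the batch block). The 7 stand beside 2.79% of all genes, none of the 16 was lower, 15 of 16 differences were positive and the median was 0.29. The count ran from 4 to 5 without each of the 6 arrays, being 4 without replicate 2 or 3 of shEGR2_40.9 or any array of shEGR2_38.9, 4 with the batch block, and 8 without the control diet array that stood apart. The list's mean was 8.92 to 8.95 with shEGR2_40.9 and 9.27 to 9.30 with shEGR2_38.9. The mean of the 6 tested macrophage genes was 6.86 to 6.92 with shEGR2_40.9 and 7.002 to 7.079 with shEGR2_38.9, with 1 member called higher and 1 lower. On the control diet it was 7.30 to 7.45 and 7.50 to 7.70, where the inflammatory median was -0.15. With shGAL on the PA-rich diet the macrophage mean was 6.92 to 7.02 and the inflammatory mean 9.73 to 9.76. The mean of 16 keratinocyte genes on the PA-rich diet was 10.95 to 11.13 against 10.85 to 11.04. The part of these cells in the result was not tested. On the control diet 1 member of the inflammatory list was higher, beside 4.32% of all genes, and 3 were lower, beside 7.57%. The test of a difference between diets was passed by 5, beside 5.57% of all genes (4 without the array that stood apart), led by Il33 at 1.37 (adjusted p = 0.000516) and Ccl20 at 0.85 (adjusted p = 4.64e-05). Both were lower on the control diet, Il33 by -0.71 and Ccl20 by -0.42 (adjusted p = 0.00374 and 0.000942).

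Some genes with related roles outside that list were also higher. Acod1, which makes the antimicrobial metabolite itaconate in activated myeloid cells, read 6.67, 6.14 and 6.38 and 7.51, 8.02 and 7.79 (1.38 ± 0.27, adjusted p = 0.00253), and was higher on the control diet too (1.97, adjusted p = 2.62e-05). Nfkbie, an inhibitor that holds NF-kB in the cytoplasm and is itself induced by it, read 8.30, 8.37 and 8.12 and 9.24, 9.16 and 9.34 (0.98 ± 0.14, adjusted p = 0.000158; control diet 0.60, adjusted p = 0.00828). Serpina3n, an acute phase protease inhibitor, differed by 0.47 ± 0.09 (adjusted p = 0.0019). Ptx3, a long pentraxin of innate immunity, had the largest increase, from 5.72, 5.97 and 5.97 to 7.53, 8.37 and 7.02 (1.75 ± 0.45, adjusted p = 0.0239). Its shEGR2_40.9 arrays were below the floor, its adjusted p was 0.183 with the batch block, the highest over the alternatives, and a second, dim probe set differed by -0.11.

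The promoters of 4 of these genes are shown because each holds the consensus NF-kB site and its gene was called higher. Each is the 250 bases before the start on the plus strand of GRCm38.p6 (RefSeq), 5′ to 3′, with matches to the consensus on either strand in capitals: chr5:90890995-90891244 for Cxcl1, chr5:90903649-90903898 for Cxcl2, chr1:83116516-83116765 for Ccl20 and chr17:45555450-45555699 for Nfkbie.
Cxcl1: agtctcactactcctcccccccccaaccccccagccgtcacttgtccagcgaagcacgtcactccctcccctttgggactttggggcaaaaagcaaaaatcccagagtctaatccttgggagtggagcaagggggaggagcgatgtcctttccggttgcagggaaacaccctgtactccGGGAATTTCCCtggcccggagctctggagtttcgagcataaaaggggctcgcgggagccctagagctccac
Cxcl2: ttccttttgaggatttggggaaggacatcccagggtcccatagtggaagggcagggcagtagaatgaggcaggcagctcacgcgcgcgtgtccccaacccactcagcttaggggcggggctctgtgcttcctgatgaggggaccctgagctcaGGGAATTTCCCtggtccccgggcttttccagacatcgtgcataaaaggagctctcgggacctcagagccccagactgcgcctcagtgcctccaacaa
Ccl20: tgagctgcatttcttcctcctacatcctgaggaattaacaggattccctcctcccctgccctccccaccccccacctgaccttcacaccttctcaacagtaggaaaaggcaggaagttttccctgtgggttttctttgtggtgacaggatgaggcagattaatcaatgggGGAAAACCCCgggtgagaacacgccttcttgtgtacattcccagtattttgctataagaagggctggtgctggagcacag
Nfkbie: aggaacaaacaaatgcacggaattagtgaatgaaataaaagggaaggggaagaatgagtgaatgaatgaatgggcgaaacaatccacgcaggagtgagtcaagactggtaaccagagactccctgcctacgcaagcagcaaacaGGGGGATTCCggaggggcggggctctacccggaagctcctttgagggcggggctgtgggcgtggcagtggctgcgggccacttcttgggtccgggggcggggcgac
The first match begins 71 bases before the start in Cxcl1, 97 in Cxcl2, 80 in Ccl20 and 106 in Nfkbie. The capitals of Cxcl1 and Cxcl2 are 2 overlapping matches, 1 on each strand, and are the same letters in both genes. Of the 7 called inflammatory genes 5 had an entry and 3 held the motif. Of the 3 called contractile genes with an entry 1 held it too, Myl9, whose match is not marked in the sequence above. Over all 32851 promoters of that length 7.25% held it, and among tested genes with an entry 10.7% did. It was in 41 of 268 higher genes (15.3%) and 25 of 212 lower genes (11.8%). A match is a description of letters only.

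**Figure D3:**
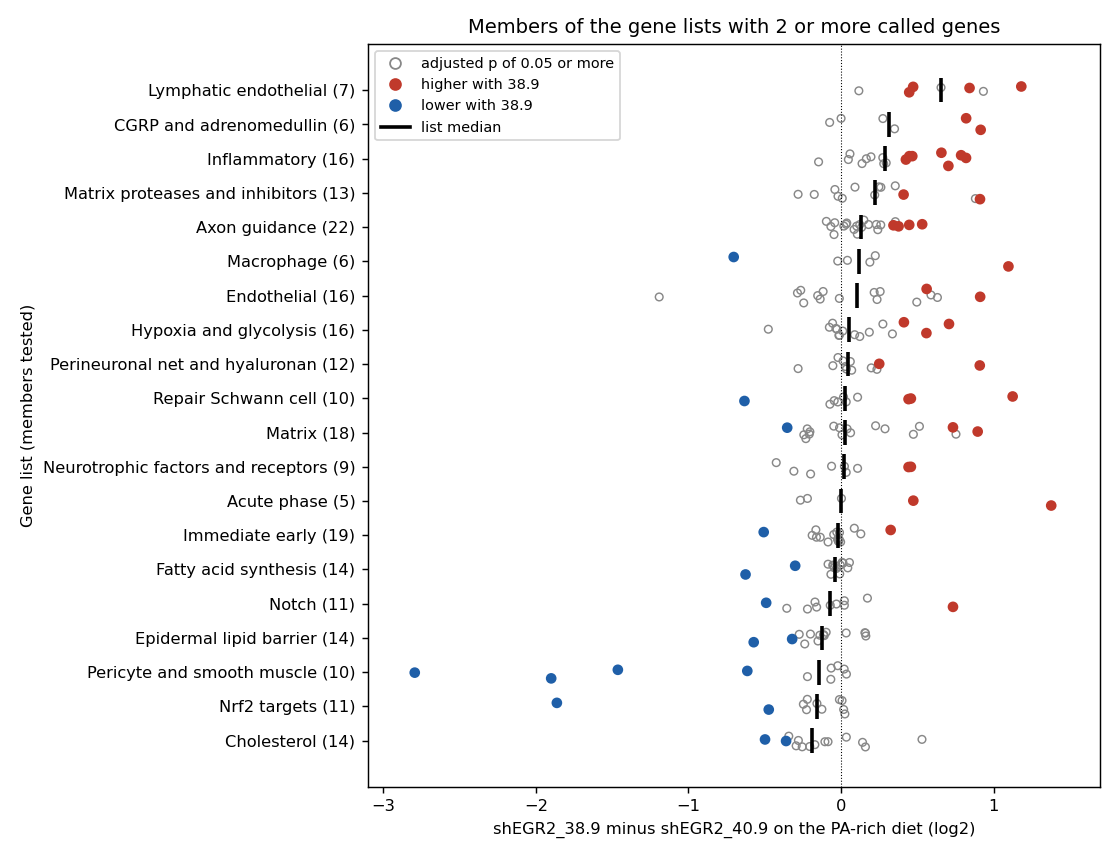
Each row is 1 of the 20 gene lists with at least 2 called genes, each point a tested member, and the horizontal axis the log2 difference shEGR2_38.9 minus shEGR2_40.9 on the PA-rich diet; filled points were called and the black bar is the list median. The lymphatic median is 0.66 and the inflammatory median 0.29, while the contractile list holds 4 called genes from -2.79 to -0.61 and 6 members near 0.

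Of 22 tested axon guidance genes 4 were higher, beside 2.79% of all genes, and none lower, 18 differences were positive and the median was 0.13 (7 higher without the array that stood apart, 2 with the batch block, and 2 without replicate 2 of either hairpin). Sema4d, a semaphorin that signals through plexin B receptors, read 9.77, 9.84 and 9.97 with shEGR2_40.9 and 10.42, 10.43 and 10.33 with shEGR2_38.9 (0.53 ± 0.09, adjusted p = 0.00101). It was lower on the control diet (-0.46, adjusted p = 0.00183), so the sign turned between diets (0.99, adjusted p = 4.92e-05). Robo1, a receptor for SLIT, differed by 0.38 ± 0.08 (adjusted p = 0.0051), Efnb1, an ephrin, by 0.34 ± 0.10 (adjusted p = 0.0388; up to 0.16 over the alternatives, 0.104 with the batch block), and Nrp2, named above, is the fourth. Among 10 genes of the repair Schwann cell, the state these cells enter after nerve injury, the neurotrophic factor Gdnf (0.46 ± 0.10, adjusted p = 0.00769; up to 0.0654 over the alternatives), Gap43 and the cytokine Lif (0.44 ± 0.12, adjusted p = 0.0263; up to 0.166 over the alternatives, with the batch block) were higher, and Sox2, a factor of immature Schwann cells and of epithelial progenitors, was lower. Sox2 read 7.55, 7.62 and 7.55 and 6.94, 6.88 and 7.004 (-0.63 ± 0.13, adjusted p = 0.00541), with the groups apart. Of these 10 repair genes 3 were higher, beside 2.79% of all genes, and 1 was lower, beside 2.21%, with a median of 0.03. The higher count was 2 with the batch block and 1 to 2 without any 1 of the 6 arrays.

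Calcb, which encodes the beta form of the neuropeptide CGRP, read 7.04, 7.21 and 7.16 with shEGR2_40.9 and 7.98, 7.99 and 7.90 with shEGR2_38.9 (0.82 ± 0.13, adjusted p = 0.000462). All 3 shEGR2_38.9 arrays were higher, and the difference was 0.02 on the control diet and passed the test between diets (0.80, adjusted p = 0.012). Calcrl, the receptor for CGRP and adrenomedullin, read 5.97, 5.94 and 5.71 and 6.74, 7.04 and 6.58 (0.92 ± 0.21, adjusted p = 0.0114; up to 0.0909 over the alternatives, with the batch block), with the shEGR2_40.9 arrays below the floor. These 2 were the called genes among 6 tested of that pathway, beside 2.79% of all genes that were higher. The hyaluronan synthase genes were both higher: Has2 read 8.24, 8.50 and 8.56 and 9.39, 9.26 and 9.37 (0.91 ± 0.13, adjusted p = 0.000177), and Has1 differed by 0.25 ± 0.07 (adjusted p = 0.0256; up to 0.138 over the alternatives, 0.0924 with the batch block). Has2 was lower on the control diet (-0.42, adjusted p = 0.0467), and the diets differed by 1.33 (adjusted p = 0.000125).

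Smaller groups gave single genes. In the Notch pathway 1 of 11 tested genes was higher, beside 2.79% of all genes, and 1 lower, beside 2.21%. The ligand Dll1 was higher, from 10.21, 9.99 and 10.10 to 10.75, 10.93 and 10.81 (0.73 ± 0.09, adjusted p = 1.6e-05), and the target repressor Hes1 was lower (-0.49 ± 0.11, adjusted p = 0.00752). Of 16 hypoxia and glycolysis genes 3 were higher, beside 2.79% of all genes (1 without replicate 2 of either hairpin or replicate 3 of shEGR2_38.9): Pfkfb3, which makes the activator of phosphofructokinase (0.71 ± 0.15, adjusted p = 0.00421), the prolyl hydroxylase Egln3 (0.56 ± 0.14, adjusted p = 0.0225; up to 0.11 over the alternatives, with the batch block) and hexokinase 2, Hk2 (0.41 ± 0.10, adjusted p = 0.0162; up to 0.121 over the alternatives, with the batch block). Of 13 matrix proteases and inhibitors 2 were higher, beside 2.79% of all genes. The collagenase gene Mmp13 differed by 0.91 ± 0.25 (adjusted p = 0.0316, up to 0.225 over the alternatives, 0.179 with the batch block). The urokinase gene Plau differed by 0.41 ± 0.12 (adjusted p = 0.0484, up to 0.187 over the alternatives, 0.111 with the batch block). With the batch block the count of this list was 0. It ran from 0 to 1 when any single array of the comparison was left out. Without the control diet array that stood apart it was 4. Of 23 cell cycle genes only cyclin B2, Ccnb2, was called, and it was lower (-0.60 ± 0.09, adjusted p = 0.000256), beside 2.21% of all genes. Among the 23, 17 differences were negative and the median was -0.085. Of 14 clock genes only Per2, a repressor of the circadian loop, was called, also lower, beside 2.21% of all genes (-0.47 ± 0.11, adjusted p = 0.00836; up to 0.0712 over the alternatives). Of 20 stress genes of the endoplasmic reticulum only Chac1, which degrades glutathione, was called, and it was lower, beside 2.21% of all genes (-0.81 ± 0.22, adjusted p = 0.0298; up to 0.144 over the alternatives). Id3, a target of BMP signalling, was higher (0.39 ± 0.11, adjusted p = 0.049; up to 0.327 over the alternatives, with the batch block).

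The remaining large increases included Plac8 (1.11 ± 0.18, adjusted p = 0.000545) and Plet1, a surface marker of epithelial progenitors (1.01 ± 0.12, adjusted p = 1.36e-05). Edn2, the vasoconstrictor peptide endothelin 2, differed by 1.01 ± 0.18 (adjusted p = 0.00111), and Ttyh2 by 1.02 ± 0.10 (adjusted p = 5.35e-07). Hs3st3b1, a heparan sulfate sulfotransferase, differed by 0.97 ± 0.11 (adjusted p = 3.67e-06), Rab5b, a GTPase of early endosomes, by 0.94 ± 0.15 (adjusted p = 0.00034) and Spata13 by 0.92 ± 0.22 (adjusted p = 0.0126; up to 0.0692 over the alternatives). Krtap13-1, a keratin-associated protein of hair, differed by 0.92 ± 0.15 (adjusted p = 0.000728), with the shEGR2_40.9 arrays below the floor.

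Mouse Egr2 itself was lower with shEGR2_38.9 than with shEGR2_40.9. It read 11.77, 11.85 and 11.84 with shEGR2_40.9 and 11.48, 11.28 and 11.32 with shEGR2_38.9, and the groups did not overlap. The difference was -0.46 ± 0.11 (adjusted p = 0.0125; 0.0479 with the batch block), and a second probe set differed by -0.42. The call was lost without replicate 2 or 3 of either hairpin, with adjusted p up to 0.0743, and kept without the control diet array that stood apart. PLKO lay between the hairpins at 11.64 and shGAL lower than both at 10.89. On the control diet the difference was 0.10 ± 0.11 (adjusted p = 0.598), and the diets differed by -0.56 (adjusted p = 0.0309). Egr1 differed by -0.06 ± 0.06, Egr3 by -0.11 ± 0.09, Nab1 by -0.04 ± 0.09 and Nab2 by -0.02 ± 0.08, with adjusted p of 0.761, 0.68, 0.92 and 0.958; 1 of the other Nab1 probe sets differed by -0.72. Gal, the galanin gene, differed by -0.08 ± 0.10 (adjusted p = 0.832). Of 19 tested immediate early genes 1 was higher, beside 2.79% of all genes, and 1 lower, beside 2.21%, with a median of -0.019. Ier3 was the higher one (0.33 ± 0.09, adjusted p = 0.033, up to 0.18 over the alternatives, with the batch block). Klf2, a flow-responsive factor of endothelium, was the lower one (-0.51 ± 0.12, adjusted p = 0.0127, up to 0.0775 over the alternatives). The higher count was 0 with the batch block and 0 when any single array of the comparison was left out. The lower count was 1 with the batch block and 0 to 1 with a single array left out. Both counts stayed 1 without the control diet array that stood apart. Klf2 was higher on the control diet (0.59, adjusted p = 0.00199).

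The promoter of Egr2 is shown for the CArG box that immediate early genes share. RefSeq gives 5 starts, 4 of which hold the motif; the 250 bases before 1 of these, chr10:67537316-67537565 (GRCm38.p6, plus strand), read 5′ to 3′ with the CArG box in capitals, 72 bases before that start:
Egr2: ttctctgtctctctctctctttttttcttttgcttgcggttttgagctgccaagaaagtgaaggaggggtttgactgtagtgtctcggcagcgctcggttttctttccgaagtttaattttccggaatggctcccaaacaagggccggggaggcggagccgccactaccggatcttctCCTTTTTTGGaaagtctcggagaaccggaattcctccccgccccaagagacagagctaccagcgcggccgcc
The site bound by EGR proteins themselves, GCGTGGGCG on either strand, was in 0.54% of all 32851 promoters of that length and in 1.26% of tested genes with an entry. It was in 3 of 268 higher genes (1.12%) and 2 of 212 lower genes (0.94%), so the called genes held it about as often as all genes tested.

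No member was called in the lists of Schwann cell identity (4 tested, median 0.062), myelin (6 tested, -0.053), interferon response (13 tested, 0.050), oxidative phosphorylation (21 tested, -0.023), ribosomal proteins (12 tested, -0.00091), H3K4 methylation complexes (13 tested, 0.033), Wnt targets and inhibitors (10 tested, -0.022) and keratinocyte genes (16 tested, -0.034). At an unadjusted p under 0.05 these 8 lists held 1, 0, 2, 0, 0, 1, 4 and 4 members in that order, beside 16% of all genes tested. With array weights in limma 1, 0, 2, 0, 0, 2, 4 and 4 were called, beside 2055 of the 11844 genes tested. Without the control diet array that stood apart 1, 0, 0, 0, 0, 0, 2 and 1 were called, beside 928 genes. With the batch block 1 keratinocyte gene was called and no member of the others, beside 363 genes. With 5.01% of all genes called, a count of 0 says little about the shorter lists. On the control diet 7 of the 13 interferon genes were higher with shEGR2_38.9, beside 4.32% of all genes, the median was 0.33 and 6 did not pass. The test of a difference between diets was passed by 3, beside 5.57% of all genes. Without the array that stood apart 7 were again higher, and 5 passed the test between diets.

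The same comparison of the hairpins was made on the control diet in other arrays, scanned in the same batches for each hairpin. There 1408 genes (11.9%) passed, 512 higher (4.32%) and 896 lower (7.57%) with shEGR2_38.9; the split was 678 and 654 after the quantile normalization was repeated, 684 and 630 after median centring, and 569 higher of 1219 without the array that stood apart. Of the 593 genes called on the PA-rich diet, 141 were called in the same direction on the control diet, 23.8% of the PA-rich calls and 10.01% of the control diet calls, and 39 in the opposite direction. The sign was the same for 370 of the 593 (62.4%), beside 54.6% of all genes. The difference itself differed between diets in 660 genes (5.57%), 446 upward (3.77%) and 214 downward (1.81%) on the PA-rich diet, a split of 340 and 266 after repeated quantile normalization, and 214 of the 593 were among them. The 593 were called on the PA-rich difference, which the test between diets includes, so that overlap is a description. Across genes, which are not independent replicates, the 2 differences correlated with a Pearson coefficient of 0.24 and a Spearman coefficient of 0.14.

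**Figure D4:**
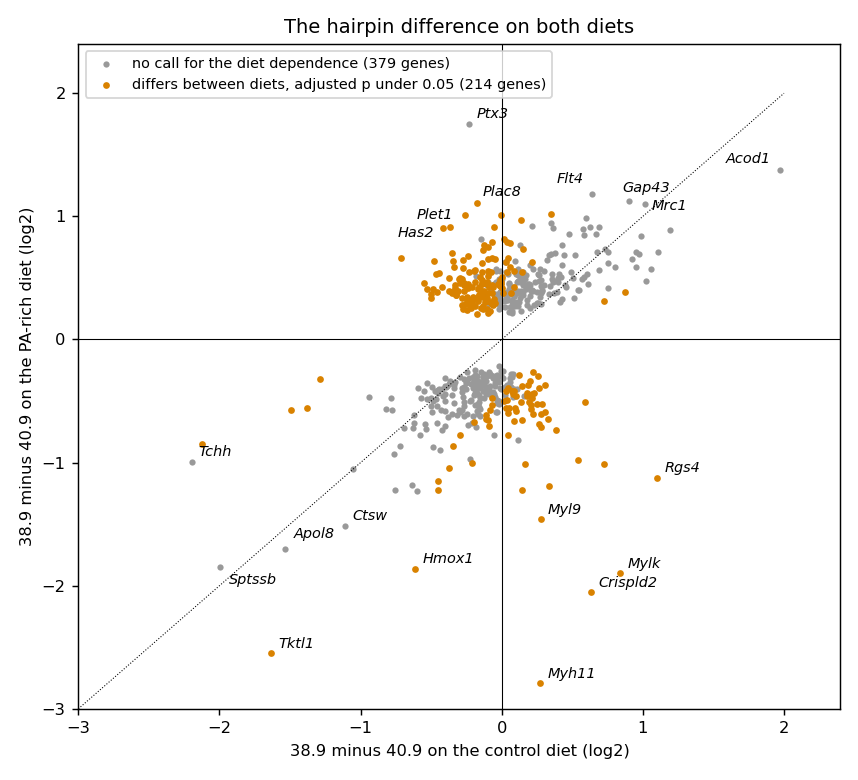
Each point is 1 of the 593 genes called on the PA-rich diet; the horizontal axis is the difference shEGR2_38.9 minus shEGR2_40.9 on the control diet, the vertical axis that on the PA-rich diet, both on the log2 scale, and the dotted line marks equal differences. The 214 genes that passed the test between diets (orange) include Myh11, Mylk and Crispld2 at the lower right, while Sptssb, Apol8, Ctsw, Mrc1 and Acod1 lie among the 379 others.

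The genes whose hairpin difference moved most upward with the PA-rich diet were epidermal genes called on the control diet and not on the PA-rich diet. Dsc1, a desmosomal cadherin of the upper epidermis, was lower with shEGR2_38.9 on the control diet (-2.54 ± 0.20, adjusted p = 8.11e-09), and its difference was -0.43 ± 0.20 on the PA-rich diet (adjusted p = 0.286), a change of 2.12 (adjusted p = 4.64e-05). Alox12b, a lipoxygenase of the skin's lipid barrier, went from -2.17 to -0.15 (adjusted p of the change 8.7e-06), Sdr9c7, another barrier enzyme, from -1.78 to 0.16 (adjusted p = 2.39e-06), Ly6g6c from -2.16 to -0.18 (adjusted p = 1.07e-05) and Sprr1b, a cornified envelope protein, from -1.51 to 0.32 (adjusted p = 8.84e-06). Of 14 barrier genes 11 were lower with shEGR2_38.9 on the control diet, beside 7.57% of all genes (11 without the array that stood apart too). On the PA-rich diet 2 were lower, beside 2.21% of all genes: Abca12, the lipid transporter of lamellar granules (-0.57 ± 0.13, adjusted p = 0.00876; up to 0.0782 over the alternatives), and Tgm3, a transglutaminase (-0.32 ± 0.09, adjusted p = 0.0421; up to 0.215 over the alternatives, 0.12 with the batch block). The mean of that list was 8.09 to 8.34 in the control diet arrays of shEGR2_38.9, and between 8.91 and 9.25 in the other 9 arrays of the 2 hairpins. Tchh, trichohyalin of the hair follicle, was lower on both diets, by -0.99 ± 0.27 and -2.20 (adjusted p = 0.0305 and 6.62e-06; the first up to 0.186 over the alternatives).

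Among the called genes, the 2 hairpins were not placed alike against PLKO. The PLKO mean on the PA-rich diet lay between the 2 hairpin means in 455 of the 593 called genes, and was nearer to shEGR2_38.9 in 426 and nearer to shEGR2_40.9 in 167. Among the 262 lower genes it was nearer to shEGR2_38.9 in 225, and among the 331 higher genes in 201. For Myh11 PLKO stood at 8.11 ± 0.87 (SD, n = 3), for Hmox1 at 9.75 ± 0.16 and for Tktl1 at 7.34 ± 0.26, each nearer to shEGR2_38.9 than to shEGR2_40.9. For Flt4, at 8.69 ± 0.21, it was nearer to shEGR2_40.9. These counts are a description, since the called genes were selected on the 2 hairpin means that PLKO is set against. The shares over all genes tested were not counted, so whether PLKO lay nearer to shEGR2_38.9 in general was not tested.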

How the data were processed

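Amplified, biotin-labelled cDNA from total RNA of the neural fraction was read on Affymetrix mouse arrays. The deposited log2 values were made by the authors with RMA in affy, per the submitters' processing notes (no version stated). Probe sets with 1 symbol in the platform annotation (28898 of 45141) were used, 1 per gene by the highest mean; genes whose mean lay under the 40th percentile over probe sets were left out (5253), which kept 11844. In limma 3.58.1 (R 4.3.3), 1 model of 8 group means over 24 arrays gave moderated two-sided tests (16 residual and 6.21 prior degrees of freedom), with Benjamini-Hochberg adjustment over the 11844 genes. The model was tested on simulated data. Arrays have no count depth; their number limits the precision. Named were the 15 largest higher and 15 largest lower calls with arrays that do not overlap, every called member of 44 gene lists, the 5 largest diet dependences in each direction, and Egr1, Egr2, Egr3, Nab1, Nab2 and Gal. Members and lists were chosen with earlier results of these data known, and the promoters, the few uncalled list members and Vwf were picked after their values were seen. Promoter windows of 250 bases are from RefSeq and matched 9502 of the genes tested. The sequences of the hairpins were not used here.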

Additional observations from a re-analysis of the deposited data

Results flagged for a closer look

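The difference between the hairpins itself differed between the diets, by the interaction test in limma, in 660 genes (5.57% of those tested), and the genes among them that are named here are given with their values. Values are the hairpin difference (shEGR2_38.9 minus shEGR2_40.9) on the PA-rich diet minus that on the control diet, on the log2 scale. Contractile and related genes moved downward with the PA-rich diet: Myh11 -3.06, Mylk -2.74, Myl9 -1.74, Acta2 -0.51, Crispld2 -2.68, Gucy1a1 -1.52 and Rgs4 -2.22. Of the inflammatory genes these moved upward: Il33 1.37, Ccl20 0.85, Cxcl2 0.73, Cxcl1 0.69 and Il1a 0.66. Epidermal and hair genes moved upward as well: Dsc1 2.12, Alox12b 2.02, Ly6g6c 1.98, Sdr9c7 1.94, Sprr1b 1.83, Abca12 0.92, Tgm3 0.97 and Krtap13-1 1.28. Genes of nerve guidance, peptide signalling, vessels and matrix moved upward: Sema4d 0.99, Robo1 0.48, Calcb 0.80, Has2 1.33, Has1 0.35, Flt1 0.97, Edn2 1.02, Dcn 0.87, Dll1 0.58 and Hs3st3b1 0.83. Of the other genes these moved downward: Tktl1 -0.91, Hmox1 -1.25, Mrnip -1.37, Kptn -0.77, Ccnb2 -0.64, Cd68 -0.61, Egr2 -0.56 and Klf2 -1.10. These moved upward: Plac8 1.28, Ttyh2 0.67, Plet1 1.27, Hk2 0.58 and Ier3 0.52. The adjusted p ran from 2.39e-06 to 0.0309 among them. These genes were named for the PA-rich difference, which the interaction test includes, or for the diet dependence itself. Their passing is thus a description. The control diet side of each value holds the array that stood apart by its Gapdh probe sets, and 752 genes passed without it. Of the 43 genes named here 41 still passed in the same direction without it, while Edn2 (0.83, adjusted p = 0.0502) and Cxcl1 (0.54, adjusted p = 0.0656) did not. Groups of 3 arrays are too small for the outlier criterion used.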

How the results depend on the processing

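The 593 calls on the PA-rich diet became 363 with the scan batch as a block, 1523 with only the arrays compared and 2055 with array weights, and ran from 302 to 928 with 1 array left out. On the control diet 1408 calls became 299 with only the arrays compared and ran from 822 to 1810 with 1 array left out. The 660 calls for the diet dependence became 431 and 1294 with only the arrays compared and with array weights, and ran from 454 to 800 with 1 array left out. The causes were not tested. Filters, probe set choice, repeated normalization and the limma trend kept each count within 1.5 times. With the replicate block the counts were 578, 1416 and 666. Same-numbered arrays of the hairpins deviated together with correlations of 0.145, -0.018 and 0.169 on the PA-rich diet, and differently numbered ones with -0.183 to 0.041. Replicate 3 of both hairpins also shares scan batch 3, so number and batch cannot be told apart there. Whether the numbers pair the arrays is thus not settled, and the block says nothing of the design. Of the 84 called genes named, 36 lost their call in at least 1 alternative and none reversed: 30 without shEGR2_38.9 replicate 2, 29 without shEGR2_40.9 replicate 3, 25 without shEGR2_40.9 replicate 2, 22 with the batch block, 21 without shEGR2_38.9 replicate 3, 19 without shEGR2_38.9 replicate 1 and 17 without shEGR2_40.9 replicate 1. List counts without the control diet array that stood apart were added after seeing the data. Differences of probe sets near the floor of 6.27 understate or blur a change in RNA.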
